A study of Rattus norvegicus with 9 samples.

Results

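Beta cell transcription factors are DNA-binding proteins that build the insulin-producing beta cells of the pancreas and keep them in that state. The 10 genes examined here form 1 list: Pdx1, Mafa, Nkx6-1, Nkx2-2, Neurod1, Isl1, Pax6, Rfx6, Insm1 and Foxa2. Each was followed through the probe sets of an Affymetrix rat expression array whose annotation gives exactly that 1 gene symbol. Of the 10 genes, 8 had such a probe set, among 14217 genes named in all. Rfx6, a factor of early endocrine differentiation, and Insm1, a zinc finger repressor of endocrine cells, had none named here and are not analysed here. Isl1 had 2 probe sets and the other 7 genes had 1 each, and the brighter Isl1 probe set was used as its main one.

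Pancreatic islets, small groups of endocrine cells, came from adult male Wistar rats, caged singly. The rats were 7 weeks old when the diets began, and their weight is given as 225 to 250 g. They were fed for 30 days either standard chow, with 8% of calories as fat, or a cafeteria diet of palatable food, with 66% of calories as fat. Islets were collected by collagenase perfusion, a density gradient and hand-picking, and 4 standard and 5 cafeteria arrays, labelled as independent biological replicates, were compared. A further standard array that the study's design mentions (1 in number) was not analysed here. Titles, source names and descriptions set the groups. For 9 of 9 samples a separate diet entry gives the other diet, and with it every difference below would change sign. The labels do not say whether islets of several animals were pooled, and precision is limited by there being 9 arrays.

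In the developing pancreas these factors switch each other on in sequence, and in the adult beta cell they bind together at the insulin gene and at genes of glucose sensing and secretion. Pdx1, Mafa and Neurod1 bind the insulin promoter directly. Nkx2-2 and Nkx6-1 are homeodomain proteins that mostly repress genes of other islet cell types. Several of the factors, Isl1, Pax6 and Neurod1 among them, also act in islet cells other than beta cells. Foxa2 opens chromatin ahead of other factors.

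Marker genes of each cell type were summed per array, for comparison between arrays and not between cell types. The insulin genes Ins1 and Ins2 had mean signals of 31645 and 25633. Summed signals of 4 beta cell markers named on the array, which include both insulin genes, lay between 99932 and 145812 on standard arrays and between 115667 and 160269 on cafeteria arrays, with 4 of 4 higher in mean in cafeteria islets. Those of 15 acinar markers, from the digestive tissue around islets, were 4103 to 10240.3 and 3121 to 11018, with 12 of 13 tested markers higher in mean. Markers of macrophages summed to 8795 to 17022 on standard and 5364 to 9049 on cafeteria arrays, and 11 of the 11 tested had a lower mean in cafeteria islets. For 11 lymphocyte markers the sums were 910.3 to 4772 and 676.8 to 924.8, the highest being standard replicate 3. All 4 tested lymphocyte markers were lower in mean. Mean signals of single markers ran from 56.3 (Ptf1a) to 1240.0 (Amy2a3) for acinar cells, from 47.9 (Cd163) to 3165 (Cd74) for macrophages and from 35.0 (Cd8a) to 326.9 (Lck) for lymphocytes. Whether these cells have a part in the diet differences of the factors was not tested. For the alpha, delta and PP cells of the islet the sums overlapped between the diets, with 3 of 4, 3 of 3 and 3 of 3 tested markers lower in mean. The alpha sum, mostly Gcg at a mean signal of 41332, was higher in cafeteria islets, at 42932 against 41435 in mean. Mean delta and PP sums were lower, at 29765 against 32402 and 49855 against 53426. Bulk arrays cannot tell fewer cells of a type from less RNA per cell.

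All 8 factors were bright. The signal is the linear MAS5 value of a probe set, with each array's trimmed mean at 500, and its percentile orders it among the 31042 probe sets of an array. Neurod1 lay between the 99.6th and 99.9th percentile on the 9 arrays, Mafa between 99.2 and 99.5, and Pax6 between 98.7 and 99.2. Nkx6-1 lay between 97.9 and 98.6, Foxa2 between 96.6 and 97.4, and Nkx2-2 between 95.8 and 98.2. Isl1 and Pdx1 were the dimmest, between 87.3 and 94.6 and between 86.9 and 91.8. The order Neurod1, Mafa, Pax6, Nkx6-1 held on 9 of 9 arrays. Nkx2-2 was above Foxa2 on 4 of 9 arrays, and Isl1 above Pdx1 on 6 of 9. Of neighbours in that order, the signal ranges over arrays overlapped for Mafa and Pax6, Nkx6-1 and Nkx2-2, Nkx2-2 and Foxa2, and Isl1 and Pdx1. This is an order of probe set signals. Probe sets bind their targets with different strength, so it is not an order of transcript numbers.

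No factor changed between the diets beyond the spread of the arrays. The fit used limma on log2(signal + 16), over 18625 probe sets left after dropping those of mean log2 signal under the 40th percentile, and an adjusted p under 0.05 counted as a call. Of 8 factors, 0 were called, against 0% of all probe sets tested. At an unadjusted p under 0.05 there were also 0 of 8, against 5.8% of all probe sets tested. With only the brightest probe set of each gene fitted, it was 724 of 10347 genes. The exact permutation test over the 126 splits of the arrays into 4 and 5 gave 0 of 8 under 0.05 too. That test cannot give a two-sided p below 0.0079. Groups overlapped for all 8, where 1.76% of all probe sets tested had groups that did not overlap. Of the factors, 5 had a lower and 3 a higher mean in cafeteria islets, against 51.9% and 48.1% of all tested. Their median log2 fold of cafeteria over standard was -0.06, beside -0.01 over all probe sets tested. With changes of known size put into simulated arrays, 75% were called at a log2 fold of 1 and 0.5% at 0.5, so differences of the size seen here were hardly detectable.

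**Figure D1:**
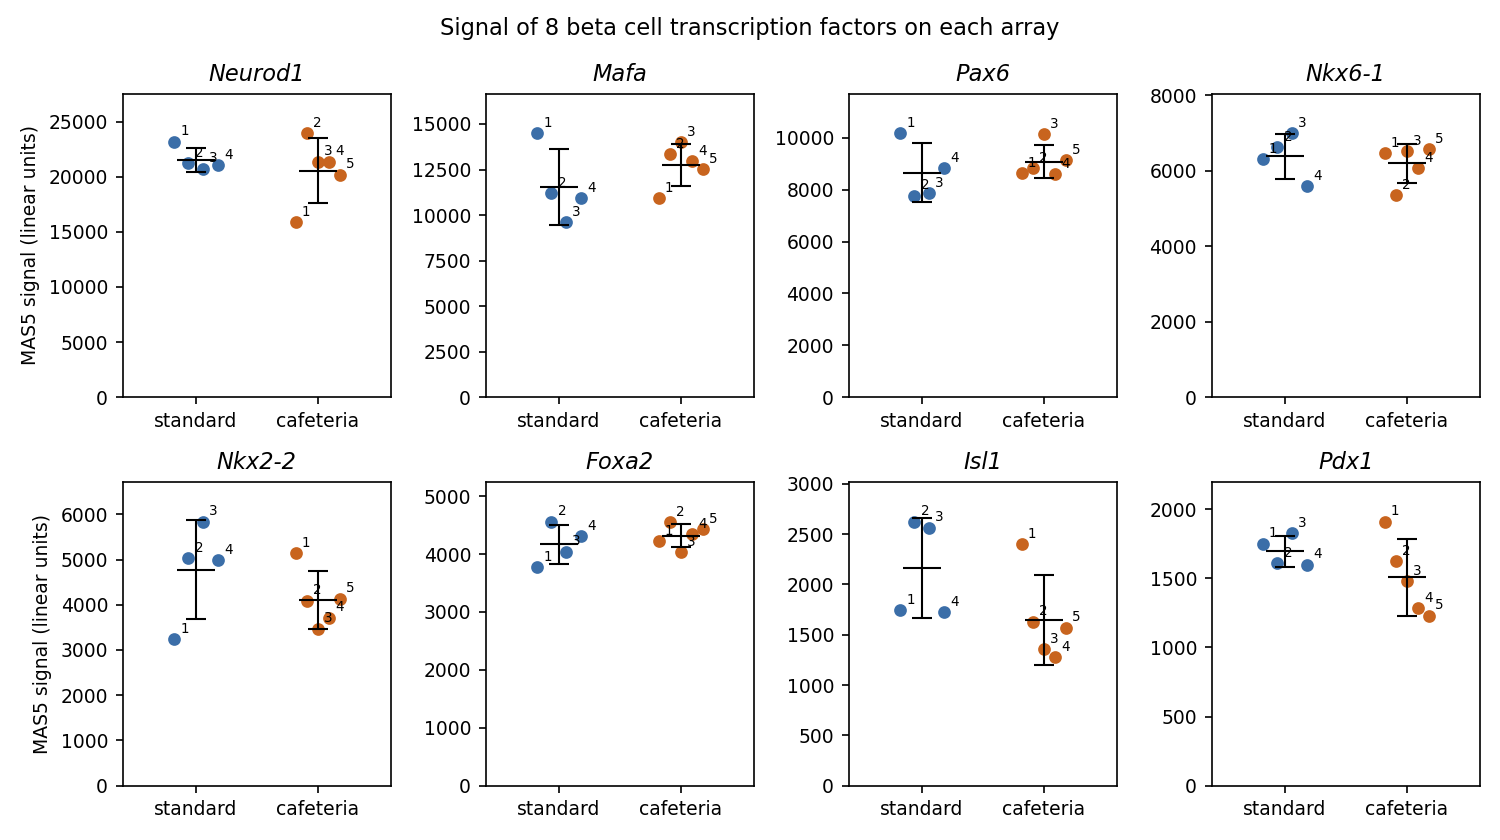
Signal of the main probe set of each factor (linear MAS5 units, from 0) on 4 standard arrays (blue) and 5 cafeteria arrays (orange), with small numbers for the replicate, a bar at the mean and whiskers of 1 SD. The groups overlap in all 8 panels, and Isl1 shows cafeteria replicate 1, at 2404, apart from the other cafeteria arrays at 1276 to 1631.

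Isl1, a LIM-homeodomain factor of all islet endocrine cells, had the largest difference of the 8. Its signal was 1744, 2625, 2566 and 1727 on standard replicates 1 to 4 and 2404, 1631, 1361, 1276 and 1570.5 on cafeteria replicates 1 to 5. Of the 5 cafeteria arrays, 4 lay below the lowest standard array, and cafeteria replicate 1 lay inside the standard range. The means were 2165.5 ± 497 (SD, n = 4) and 1649 ± 447 (SD, n = 5). The log2 fold was -0.40 ± 0.19 (SE), with a 95% interval from -0.81 to 0.01, that is from 0.571 to 1.01 times the standard level. It did not pass limma's test (adjusted p = 0.839) or the exact permutation test (two-sided p = 0.119). It was -0.54 without cafeteria replicate 1 and -0.30 without standard replicate 2. Isl1 also varied most among the 8 within a diet, with a within-group SD of 0.34 on the log2 scale, higher than that of 71.4% of probe sets tested.

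The dimmer Isl1 probe set did not pass the filter on low signals. It gave 54.5, 40.8, 97.5 and 62.3 on the standard arrays and 35.5, 55.1, 27.1, 20.5 and 74.2 on the cafeteria arrays. The difference of means was -0.48 on the same log2 scale, with an exact two-sided permutation p of 0.190. Its direction was that of the main probe set, but its order of arrays was not, since cafeteria replicate 5 was its highest cafeteria array and not cafeteria replicate 1.

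Pdx1, the homeodomain factor that starts pancreas formation and later binds the insulin promoter, gave 1751, 1609, 1828 and 1598 on the standard arrays. On cafeteria replicates 1 to 5 it gave 1909, 1626, 1479, 1283 and 1229. Cafeteria arrays lay on both sides of the standard ones, 3 below all of them and 1 above. The log2 fold was -0.19 ± 0.13 (SE), with a 95% interval from -0.47 to 0.10 (limma adjusted p = 0.859; exact permutation p = 0.222). Without cafeteria replicate 5, the lowest array, it was -0.12. The spread was 18.3% of the mean in cafeteria islets and 6.6% in standard islets, a difference in spread that was not tested. Summed signals of 10 stellate cell and fibroblast markers, 10593 to 13338 on standard and 7952 to 16938 on cafeteria arrays, had an r of -0.709 with Pdx1 over the 9 arrays (exact permutation p = 0.030) and a rho of -0.717 (exact permutation p = 0.037). This did not pass over 96 such relations (adjusted p = 0.713), r was -0.343 without the 2 arrays of the most distant sums, and the part of these cells was not tested.

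The stretch before the Pdx1 start site is shown because basic helix-loop-helix proteins, the class of Neurod1, bind E-boxes. Its 250 bases in RefSeq's rat assembly GRCr8, chr12:12799157-12799406, minus strand, hold 3 matches to the E-box CANNTG, in capitals, which begin 147, 141 and 73 bases before the start.

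Pdx1: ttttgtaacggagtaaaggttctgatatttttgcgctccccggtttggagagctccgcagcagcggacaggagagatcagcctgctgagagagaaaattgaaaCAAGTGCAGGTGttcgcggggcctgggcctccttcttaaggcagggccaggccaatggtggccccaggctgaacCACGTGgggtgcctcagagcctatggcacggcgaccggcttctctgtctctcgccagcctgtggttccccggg

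The site nearest the start has the letters CACGTG. At least 1 CANNTG match was found in 65.5% of all 33469 RefSeq windows of that length, and in 4 of the 7 factors with a window, so a match is common.

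Mafa, the basic leucine zipper activator of insulin transcription that marks mature beta cells, went the other way. It gave 14499, 11220.3, 9595 and 10918 on the standard arrays and 10936, 13356, 13992, 12978 and 12525 on the cafeteria arrays. Of the cafeteria arrays, 4 of 5 lay above the standard mean of 11558 ± 2084 (SD, n = 4), but standard replicate 1 was the highest of the 9. The cafeteria mean was 12757 ± 1152 (SD, n = 5), a log2 fold of 0.15 ± 0.12 (SE) with a 95% interval from -0.11 to 0.41 (limma adjusted p = 0.867; exact permutation p = 0.270). The fold was 0.27 without standard replicate 1 and 0.07 without standard replicate 3, the lowest array.

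Neurod1, the helix-loop-helix partner at the insulin promoter, was the brightest factor. Its signals were 23181, 21212, 20734 and 21050.5 on the standard arrays and 15908, 23962, 21366, 21378 and 20189 on the cafeteria arrays. Cafeteria replicates 1 and 2 were the lowest and the highest of the 9, so the standard arrays lay inside the cafeteria range. The log2 fold was -0.08 ± 0.11 (SE), with a 95% interval from -0.32 to 0.16 (limma adjusted p = 0.929). The sign turned without cafeteria replicate 1, to 0.01.

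Nkx2-2 gave 3233, 5028, 5838 and 4989.6 on the standard arrays and 5148, 4090.0, 3475, 3716 and 4138 on the cafeteria arrays. Standard replicate 1 was the lowest and standard replicate 3 the highest of the 9, so every cafeteria array lay within the standard range. The means were 4772 ± 1098 (SD, n = 4) and 4113 ± 640 (SD, n = 5), a log2 fold of -0.19 ± 0.16 (SE) with a 95% interval from -0.54 to 0.16 (limma adjusted p = 0.870; exact permutation p = 0.341). It was -0.37 without standard replicate 1 and -0.09 without standard replicate 3.

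The 250 bases before the RefSeq start of Nkx2-2, chr3:155075623-155075872 in GRCr8, minus strand, are shown because Nkx2-2 takes part in the closest relation between factors described below, and Mafa has no entry in the sequence table. Capitals mark the single match to TAAT, the core that many homeodomain proteins bind. TAAT was sought on both strands, and the match begins 232 bases before the start.

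Nkx2-2: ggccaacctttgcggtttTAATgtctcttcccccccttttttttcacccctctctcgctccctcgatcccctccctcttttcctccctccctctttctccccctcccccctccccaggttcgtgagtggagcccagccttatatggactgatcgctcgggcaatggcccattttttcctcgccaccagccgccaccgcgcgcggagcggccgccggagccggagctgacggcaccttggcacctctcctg

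No E-box lies in this window, and 57.0% of all windows hold TAAT on either strand. Of the 7 factors with a window, 4 did: Nkx2-2, Isl1, Foxa2 and Nkx6-1. The forkhead core TGTTTAC was in 0 of 7 and in 3.21% of all windows, and the Maf core TGCTGA, sought on both strands, was in 2 of 7 (Pdx1 and Neurod1) and in 15.1%.

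Nkx6-1, which holds beta cells apart from alpha cells and supports insulin secretion, differed least. Signals were 6302, 6624, 6995 and 5583 on the standard arrays and 6465, 5346, 6518, 6063 and 6579 on the cafeteria arrays. Its log2 fold was -0.04 ± 0.10 (SE), with a 95% interval from -0.26 to 0.18 (limma adjusted p = 0.962), and the sign turned without standard replicate 3 or cafeteria replicate 2. Pax6, a paired-box factor needed for islet hormone genes, gave 10179, 7766, 7854 and 8829 against 8646, 8816, 10149, 8606 and 9129. Its log2 fold was 0.07 ± 0.10 (SE), from -0.15 to 0.29 (limma adjusted p = 0.929). It was 0.15 without standard replicate 1 and 0.02 without standard replicate 2.

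Foxa2 was the steadiest of the 8. Signals were 3779, 4560.5, 4043 and 4309 on the standard arrays and 4229, 4548, 4039, 4344 and 4430 on the cafeteria arrays, a highest over lowest of 1.21. The within-group SD on the log2 scale was 0.09, and 1.82% of probe sets tested had a lower one. The log2 fold was 0.05 ± 0.09 (SE), with a 95% interval from -0.14 to 0.25 (limma adjusted p = 0.950). It was 0.0051 without standard replicate 1 and 0.095 without standard replicate 2. For Nkx6-1 and Pax6 too the SD was low, with 8.58% and 10.9% of probe sets below.

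**Figure D2:**
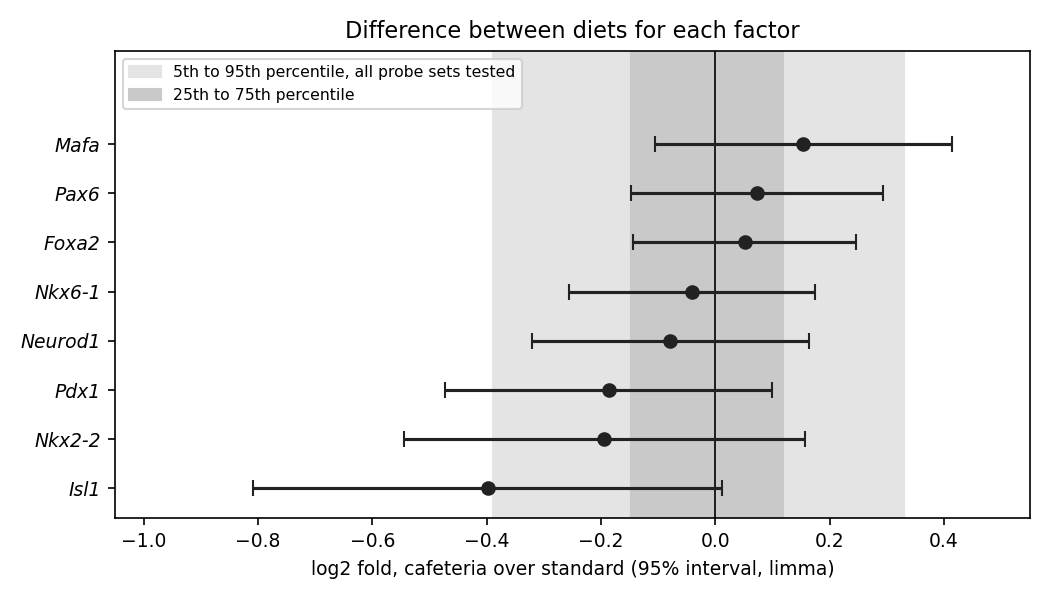
Log2 fold of cafeteria over standard for each factor, with the 95% interval from limma, over grey bands that hold the middle of all probe sets tested. All 8 intervals include 0, and the point for Isl1, at -0.40, is the one outside the 5th to 95th percentile band, from -0.39 to 0.33.

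Mafa was high on the arrays where Nkx2-2 was low. Correlations were computed over the 9 arrays for all 28 pairs of factors on the log2 scale. For Mafa and Nkx2-2 they were opposed: Pearson r was -0.977 (exact permutation p = 5.8e-05, adjusted p = 0.0016 over the 28 pairs) and Spearman rho -0.933 (exact permutation p = 0.00075, adjusted p = 0.021). Standard replicate 1 had the highest Mafa and the lowest Nkx2-2 signal of the 9 arrays, and standard replicate 3 the lowest Mafa and the highest Nkx2-2 signal. Each diet has too few arrays for an r of its own. With both group means removed r was -0.975 (exact permutation p = 0.0021, adjusted p = 0.058). Without standard replicates 1 and 3, the arrays farthest from the median Mafa signal, it was -0.961. Leaving out each array in turn gave r between -0.990 and -0.971.

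Among the 10346 other genes tested, Nkx2-2 was the one most opposed to Mafa, and Mafa the one most opposed to Nkx2-2. The next were Eif1ax, at -0.970, for Mafa and Rpap2, at -0.967, for Nkx2-2. How often strong correlations occurred across these 9 arrays differed between the factors. An absolute r above 0.8 was found for 5.58% of genes with Mafa, 6.75% with Nkx2-2, 8.14% with Pax6 and 4.49% with Isl1. It was found for 1.13% with Pdx1, 1.01% with Foxa2, 0.880% with Nkx6-1 and 0.851% with Neurod1. The median absolute r was 0.41 for Mafa and 0.43 for Nkx2-2, between 0.25 for Nkx6-1 and 0.44 for Pax6. Mafa and Nkx2-2 each had strong correlations with many genes, so the permutation p above does not show a relation particular to this pair.

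The 3'/5' signal ratio of the beta-actin control, a measure of RNA integrity and labelling, ran from 2.79 to 5.63 over the arrays. Its r was 0.696 with Mafa (exact permutation p = 0.040) and -0.699 with Nkx2-2 (exact permutation p = 0.041), and 0.675 with Pax6 (exact permutation p = 0.047). Spearman rho was 0.700, -0.617 and 0.533 (exact permutation p = 0.043, 0.086 and 0.148). None passed over the 96 relations of factors with array measures, where the lowest adjusted p was 0.713. Without the 2 arrays of the most distant ratio the r values were 0.602, -0.573 and 0.586. With diet and the actin ratio both removed, r between Mafa and Nkx2-2 was -0.950. Summed beta cell markers had an r of 0.706 with Mafa (exact permutation p = 0.033) and -0.609 with Nkx2-2 (exact permutation p = 0.082); rho was 0.600 and -0.567 (exact permutation p = 0.097 and 0.121). These fell to 0.431 and -0.453 without the 2 most distant arrays. Their part in the relation was not tested.

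**Figure D3:**
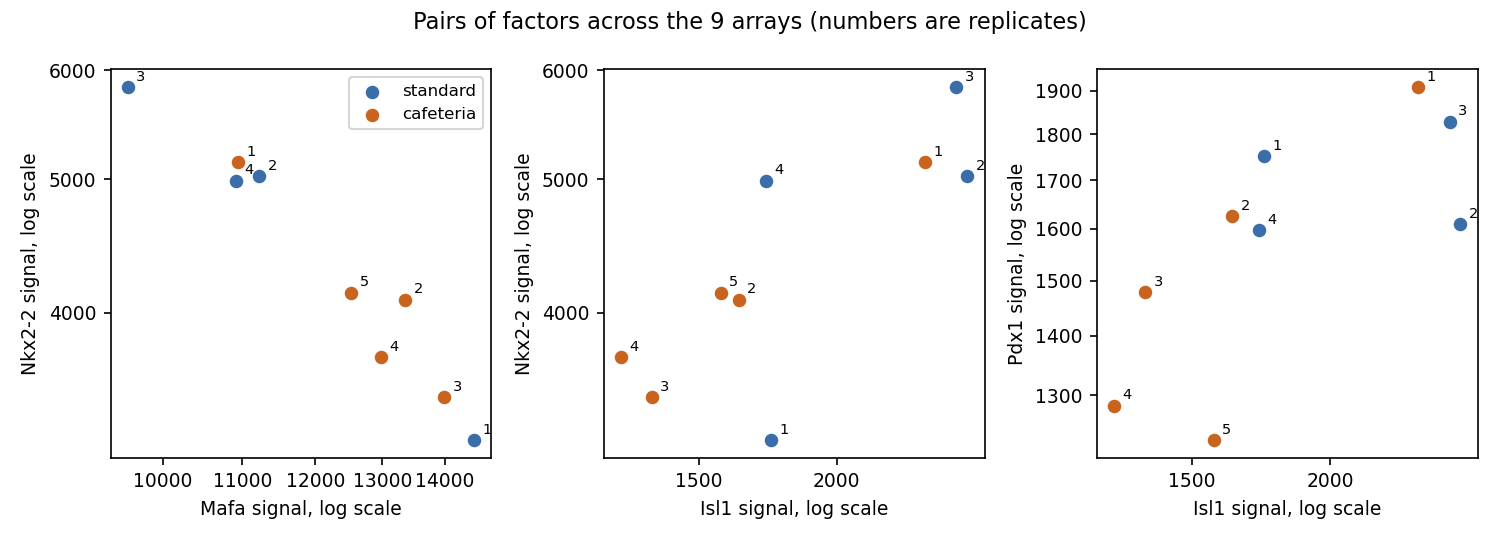
Signals of 3 pairs of factors on each array (log axes, 4 standard arrays in blue, 5 cafeteria arrays in orange, numbers for replicates). Nkx2-2 falls as Mafa rises across both diets (r = -0.977), while Isl1 rises with Nkx2-2 (r = 0.790) and with Pdx1 (r = 0.718).

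Other pairs did not pass after adjustment and are given as values. Nkx2-2 and Pax6 had an r of -0.835 (exact permutation p = 0.0051, adjusted p = 0.072) and rho of -0.717 (exact permutation p = 0.037, adjusted p = 0.206). For Mafa and Pax6 r was 0.810 (exact permutation p = 0.0078, adjusted p = 0.073) and rho 0.633 (exact permutation p = 0.076, adjusted p = 0.304). Isl1 had an r of 0.790 with Nkx2-2 (exact permutation p = 0.015, adjusted p = 0.106), 0.718 with Pdx1 (exact permutation p = 0.032, adjusted p = 0.149) and -0.750 with Mafa (exact permutation p = 0.025, adjusted p = 0.141). The rho values were 0.667, 0.733 and -0.517 (exact permutation p = 0.059, 0.031 and 0.162, adjusted p = 0.275, 0.206 and 0.453). With group means removed these 5 r values were -0.819, 0.793, 0.761, 0.628 and -0.688. Without the 2 arrays farthest from the median of the first gene they were -0.675 for Nkx2-2 and Pax6, 0.640 for Mafa and Pax6, 0.877 for Nkx2-2 and Isl1, 0.663 for Pdx1 and Isl1, and -0.780 for Mafa and Isl1. Neurod1 and Mafa had an r of 0.502 over the 9 arrays (exact permutation p = 0.156, adjusted p = 0.482), a rho of 0.733 (exact permutation p = 0.031, adjusted p = 0.206), an r of 0.685 with group means removed (exact permutation p = 0.0097, adjusted p = 0.097) and 0.169 after quantile normalisation. For Foxa2 the r farthest from 0 was -0.555, with Pax6 (exact permutation p = 0.120, adjusted p = 0.421). Of the 28 pairs, 17 had a negative r, so the 8 factors did not vary as 1 block.

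**Figure D4:**
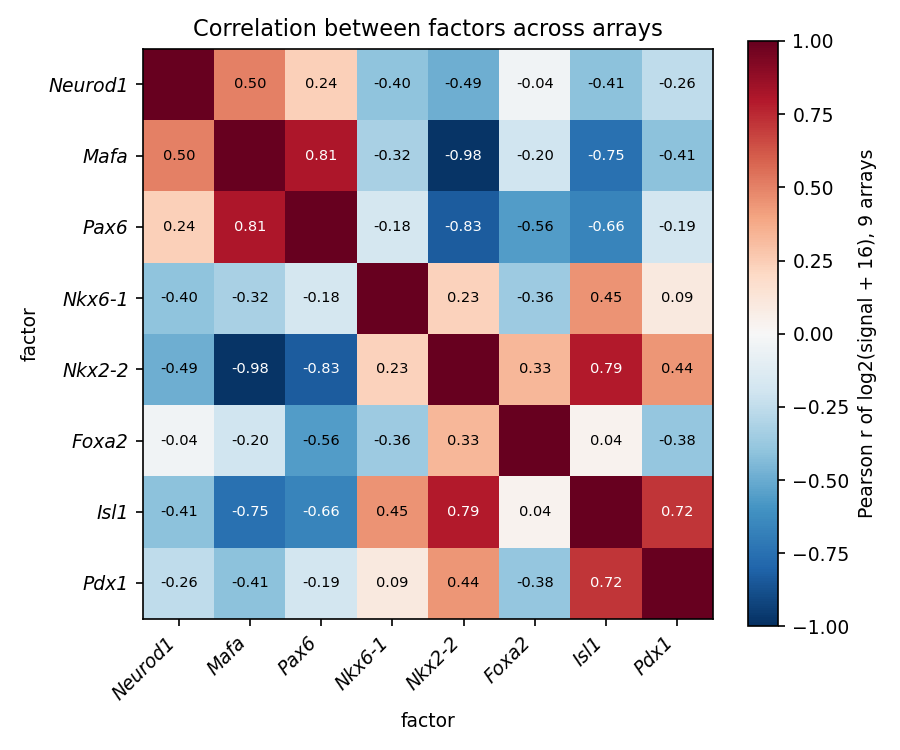
Pearson r between factors over 9 arrays, from log2(signal + 16), with red for positive and blue for negative values. Mafa, Pax6 and Neurod1 are positive with each other (0.81, 0.50 and 0.24), as are Nkx2-2, Isl1 and Pdx1 (0.79, 0.72 and 0.44), and the r values between those sets are all negative. The sets were read off these same values, and only Mafa with Nkx2-2 passed adjustment. After quantile normalisation r was 0.08 for Pdx1 and Pax6. Neurod1 then had -0.02 with Nkx2-2, -0.02 with Pdx1 and -0.11 with Isl1. Within its own set it had 0.17 with Mafa and 0.06 with Pax6, so its place in that set depended on the normalisation. The other r values between the sets stayed negative, from -0.95 to -0.36.

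For each factor the single gene with the most similar pattern over the 9 arrays was sought among 10339 genes outside the list. It was Paxip1 for Pdx1 (r = 0.973), Fez2 for Mafa (0.966), Lrfn1 for Nkx6-1 (0.934) and Slco2b1 for Nkx2-2 (0.982). It was Rapgef5 for Neurod1 (0.944, and 0.646 after quantile normalisation), Pde4d for Isl1 (0.980), Dele1 for Pax6 (0.980) and Map3k6 for Foxa2 (0.934). These are each the highest of 10339 values and are given as a description.

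Related transcription factors of the islet held more lower than higher means in cafeteria islets, with no call. Of 50 listed, 43 were named on the array and 32 were tested: 8 had a higher and 24 a lower mean, with a median log2 fold of -0.13, and 0 were called or had an unadjusted p under 0.05. Among all probe sets tested 51.9% were lower. The 6 with the smallest p were Etv5, an ETS factor (0.36 ± 0.22, SE), the immediate early receptor Nr4a1 (-0.29 ± 0.18), the thyroid hormone receptor Thra (-0.29 ± 0.19), the zinc finger factor Zbtb20 (-0.26 ± 0.18), the zinc finger factor Myt1 (-0.17 ± 0.13) and the Iroquois factor Irx1 (-0.24 ± 0.19), with limma adjusted p-values of 0.859 to 0.866. Signals of Nr4a1 ran from 1668 to 2266 on standard and from 1256 to 2425 on cafeteria arrays. Leaving out 3 arrays together, picked after seeing the data, brought the list's median to -0.06, and the folds of Etv5, Nr4a1, Zbtb20 and Irx1 to 0.11, -0.06, -0.02 and -0.08. These were standard replicates 1 and 3, each with a marker sum far from the other standard arrays, and cafeteria replicate 3, with the highest actin ratio (5.63) and the lowest delta and PP cell sums (19425 and 35591). With 1 array left out, Etv5 moved to 0.21 (cafeteria replicate 3), Thra moved to -0.18 and Myt1 to -0.08 (cafeteria replicate 5), and Zbtb20 to -0.15 and Irx1 to -0.10 (standard replicate 1). Nr4a1 moved to -0.45 without cafeteria replicate 2, and Zbtb20 to -0.40 without cafeteria replicate 5.

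Partners and cofactors of the factors also held more lower than higher means. Of 40 listed genes 37 were tested, 26 lower and 11 higher, with a median log2 fold of -0.10, and 0 were called by limma. With the arrays centred on their medians, the split was 20 lower and 17 higher and the median -0.06. Centring also moved the whole array, with 56.5% of all probe sets tested then higher and their median at 0.03. Without standard replicate 4 the median of the partners was -0.06 too. An unadjusted p under 0.05 was found for 3 of 37, or 8.11%, against 5.8% of all probe sets tested. The list holds 1 probe set per gene. With only the brightest probe set of each gene fitted, 724 of 10347 genes had such a p. Tle3, a Groucho corepressor of the class that Nkx2-2 and Nkx6-1 recruit, had signals of 1005 to 1122 on the standard and 706.6 to 976.9 on the cafeteria arrays, so its groups did not overlap. Its log2 fold was -0.32 ± 0.12 (SE; limma adjusted p = 0.839; exact permutation p = 0.016). Groups did not overlap for 2 of the 37 genes, against 1.76% of all probe sets. The other was its relative Tle1, named after its values were seen, which had the opposite sign, with a log2 fold of 0.21 ± 0.11.

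Id2, which blocks helix-loop-helix factors from binding DNA, had a log2 fold of -0.62 ± 0.26 (SE), and -0.43 without standard replicate 1. Rcor1, a corepressor that works with histone demethylase, had -0.32 ± 0.15, and the coactivator-binding protein Cited2 had -0.60 ± 0.28. Without cafeteria replicate 3 the Cited2 fold was -0.32, and without those 3 arrays -0.17. Meis2, a homeodomain cofactor of Pbx proteins, had -0.35 ± 0.17, and Ssbp4, a single-stranded DNA-binding protein, -0.36 ± 0.17. Adjusted p-values by limma were 0.839 for all 6.

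Known target genes of the factors had means on both sides. Of 38 listed, 27 were named and 26 tested: 15 had a higher and 11 a lower mean, with a median log2 fold of 0.05, and 0 were called by limma. Among all probe sets tested 48.1% were higher. Without standard replicate 3 the median was -0.0007 and the split 13 to 13. After quantile normalisation they were 0.01 and 14 to 12, where 50.9% of all probe sets tested were higher. With the arrays centred on their medians the split was 18 higher and 8 lower, where 56.5% of all tested were higher. Unadjusted p-values under 0.05 were found for 2 of 26, or 7.69%, beside 5.8% of all probe sets tested. With only the brightest probe set of each gene fitted, 724 of 10347 genes had such a p. Chgb, a granin of the insulin granule, had signals of 12818 to 16957 on standard and 15052 to 20526 on cafeteria arrays, a log2 fold of 0.31 ± 0.11 (SE; limma adjusted p = 0.839; exact permutation p = 0.056). Gad1, which makes the transmitter GABA, had 0.24 ± 0.10 (exact permutation p = 0.032). The incretin receptor Gipr had -0.37 ± 0.19, and -0.20 without cafeteria replicate 3. Rab3d, a granule GTPase, had 0.20 ± 0.12, the oxidase Ero1b 0.23 ± 0.15 and the calcium channel Cacna1c -0.21 ± 0.14. Ero1b was 0.11 without standard replicate 2, Cacna1c -0.12 without standard replicate 4, and Rab3d 0.03 and Gipr -0.11 without the 3 arrays. The beta cell glucose transporter Slc2a2, a textbook Pdx1 target named after its value was seen, had 0.09 ± 0.10.

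**Figure D5:**
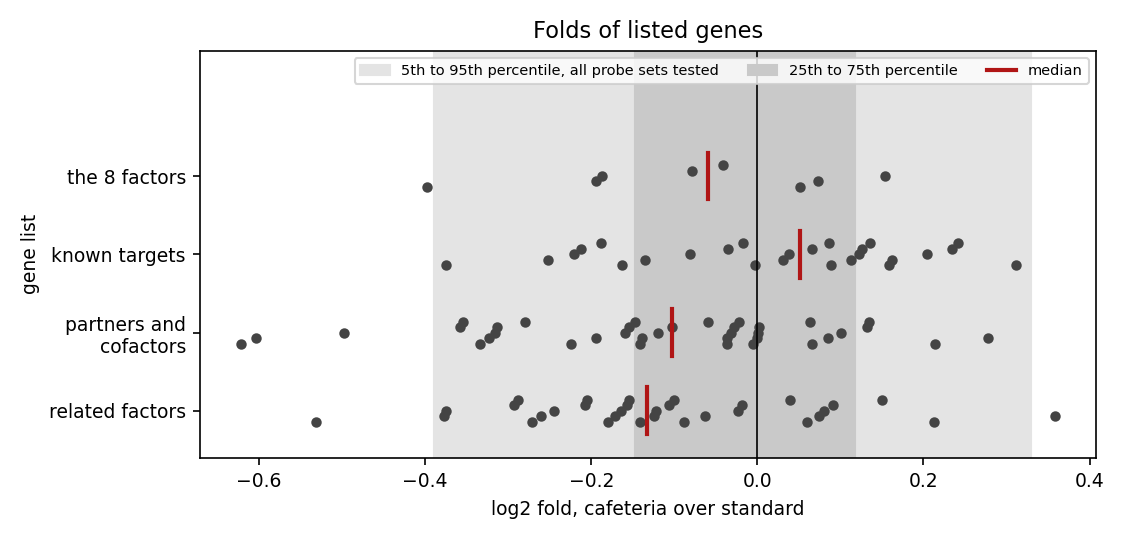
Log2 fold of cafeteria over standard for each tested gene of 3 lists and for the 8 factors (points), with the list median as a red bar and grey bands for the middle of all probe sets tested. Medians are -0.13 for 32 related factors, -0.10 for 37 partners, 0.05 for 26 known targets and -0.06 for the 8 factors. The bands describe single probe sets and are no yardstick for a list's median.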

How the data were processed

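The deposited intensity values are linear signals, 1 per probe set, which the authors computed using MAS5, according to what is deposited and per the submitters' processing notes. Signals average 500 on every array once the top and bottom 2% are removed, and they were not rescaled. The MAS5 version was not found in the labels. Of 31099 probe sets, 57 controls were left out, and 20826 of the remaining 31042 have exactly 1 gene symbol in the platform annotation. Array medians were 147.0 to 166.6, and arrays correlated at 0.941 to 0.974.

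Signals were taken as log2(signal + 16), which understates folds of dim genes, and fitted by limma 3.58.1 under R 4.3.3. The model held diet alone and let the variance follow intensity, and p-values were adjusted by Benjamini-Hochberg across 18625 probe sets at or above the 40th percentile (a signal of about 91.1). The fit was tested on simulated data with 200 changed probe sets of 18625. Permutation tests were exact and two-sided (Python 3.11.15, scipy 1.17.1). The members and lists were chosen with earlier results of these data known. Named genes are the members, the 6 smallest p-values of each of 3 lists and the gene most like each member. Windows before start sites and their sequences are from RefSeq, build GRCr8; 7 members matched.

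Alternatives were a pseudocount of 1 or 64, quantile normalisation, median centring, a filter at the 60th percentile or none, array weights, other variance models, other probe sets, a replicate block, and each array left out in turn. A covariate for the beta-actin ratio and the joint removal of 3 arrays (standard replicates 1 and 3, cafeteria replicate 3) were chosen after seeing the data.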

Additional observations from a re-analysis of the deposited data

Results flagged for a closer look

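In 74 groups of 4 or 5 arrays, 3 summed marker signals had 1 array far from the others of its group. Chance gives about 1 in 20, so 3 of 74 is no more than chance would give. On standard replicate 3 the macrophage markers summed to 17022, with the next standard array at 9903, and the lymphocyte markers to 4772, with the next at 1339. On standard replicate 1 the delta cell markers summed to 36028, with the next at 31500. Standard replicate 3 also had the lowest Mafa and the highest Nkx2-2 signal of the 9 arrays, and standard replicate 1 the reverse.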

How the results depend on the processing

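With 9 arrays, limma called 0 of 8 factors in the main setting and in 23 of 23 alternatives, and 0 probe sets in all but 1 of 22, the count being 0 to 2 with each array left out. The dimmer Isl1 probe set, swapped in for 1 of the 23, lay under the filter and could not be called. Pdx1, Isl1, Nkx2-2, Mafa and Pax6 kept their sign in every alternative run, though a changed filter or variance model cannot move a fold. The sign of Foxa2 turned without the 3 arrays left out together (-0.015), as did that of Nkx6-1 (0.0029). With each array left out Nkx6-1 lay between -0.10 and 0.011 (0.0052 without standard replicate 3) and Neurod1 between -0.14 and 0.011. The cause was not tested. The median of the 8 factors was -0.10 to -0.02 with each array left out, -0.12 with quantile normalisation and -0.02 with median centring. Over all probe sets tested the median was 0.004 with quantile normalisation and 0.03 with median centring.

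The number of pairs of factors correlated at an adjusted p under 0.05 was 1 in the main setting, 1 to 2 with each array left out, and 0 on deviations from the group means, without the 2 arrays farthest from the median and without the 3 arrays left out together. Mafa and Nkx2-2 had r of -0.975, -0.961 and -0.941 there (exact permutation, adjusted p = 0.058, 0.089 and 0.583). The cause was not tested. The second pair was Nkx2-2 and Isl1 without standard replicate 1 and Nkx2-2 and Pax6 without cafeteria replicate 4.

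With the replicate number as a block 0 factors and 0 probe sets were called, and Pdx1 had -0.12 and the median of the factors -0.07. Cafeteria replicate 5 has no standard array of its number, so these folds are the same as with that array left out. Same-numbered arrays of the 2 diets deviated with correlations of -0.384, -0.053, -0.121 and 0.030, and 0 of 4 standard arrays correlated best with their own number. Whether such arrays share more than a number cannot be told from 4 correlations.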
